A study of Mus musculus with 4 samples.

Results

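Matrix metalloproteases (MMPs) and ADAMTS proteases were represented by 41 protein-coding genes, 22 Mmp and 19 Adamts, among the 54532 genes listed for each library, of which 21995 were annotated as protein-coding. They were taken by a name rule, chosen with earlier results of these data known. The rule took every GENCODE M21 symbol made of Mmp and a number, with or without a or b, or of Adamts and a number. Mmp1a matched the name as a 42nd symbol but was annotated as a polymorphic pseudogene and was left out, with 1 read in all 4 libraries together. Brain tissue of C57BL/6 mice was sequenced as 4 poly-A RNA libraries, with 1 library for each combination of age (young or old) and state (naive or tumor-bearing). The tumor-bearing mice had received 50000 GL261 cells, a mouse glioma line grown as a graft, in the brain, and tissue from outside the tumor was taken on day 21. The naive mice served as controls, no group received a treatment, and the GL261 tag stands on all 4 libraries, naive ones included. Young mice were 8 to 12 weeks old, while the stated range of the old mice, 8 to 90 weeks, begins at the same age as that of the young. The sources used here do not state how many animals stand behind a library. With 1 library per group no difference below has a replicate check, no test between groups was made, and each statement compares libraries.

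Both families are secreted or membrane-bound zinc enzymes that are made as inactive precursors, activated by removal of a prodomain, and held in check by tissue inhibitors of metalloproteases (TIMPs). MMPs cut collagens, laminins, fibronectin and many cell surface proteins, and ADAMTS enzymes cut proteoglycans of the lectican group, process procollagens, or act on fibrillin and von Willebrand factor. In brain, where the matrix is rich in lecticans and poor in fibrillar collagen, these enzymes are known for remodelling perineuronal matrix and the basement membrane of vessels, and for tumor cell invasion.

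Levels are FPKM as deposited by the authors, a fragment count divided by gene length and by library depth. Fragments (called reads here) were recovered as whole numbers from these values and came to 23267926 in genes of the young naive, 21893363 of the young tumor-bearing, 19628991 of the old naive and 19572251 of the old tumor-bearing library. The 6 neuronal markers summed to 909.8, 819, 1244 and 258 FPKM in that order, the 5 astrocyte markers to 391, 394, 382 and 116 FPKM and the 5 oligodendrocyte markers to 1037, 965, 736 and 458 FPKM, with reads for every one of these markers in every library. Markers of choroid plexus summed to 415, 399, 7.53 and 456 FPKM, which sets the old naive library apart, and markers of cycling cells to 1.03, 6.70, 0.538 and 143 FPKM, which sets the old tumor-bearing library apart. In bulk tissue, fewer cells of a type and less RNA per cell cannot be told apart.

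At 1 FPKM or more in at least 1 library stood 27 of the 41 proteases, and the other 14 stayed below that level throughout. The summed level of all 41 was 104, 114 and 107 FPKM in the young naive, young tumor-bearing and old naive libraries and 207 FPKM in the old tumor-bearing library. The composition of this sum differed as well. Mmp17, a membrane enzyme held by a lipid (GPI) anchor, was the most abundant member in the first 3 libraries, with 29.0%, 21.8% and 45.2% of the summed FPKM. In the old tumor-bearing library Adamts1, a lectican-cutting protease, made up 33.4% of the sum, against 3.06%, 3.81% and 2.37% in the other 3.

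**Figure D1:**
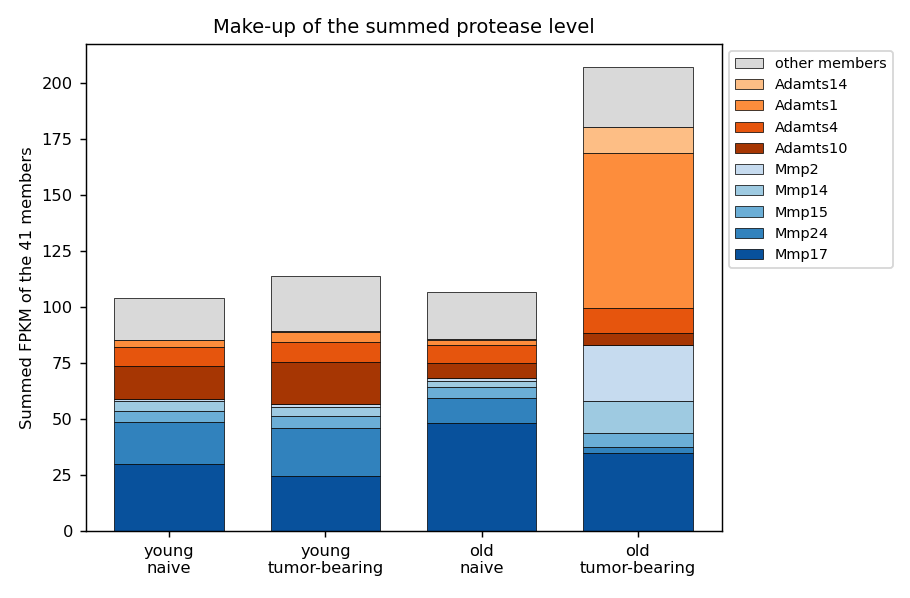
Stacked bars of the summed FPKM of the 41 proteases in each of the 4 libraries, with the 9 most abundant members in separate shades (MMPs in blue, ADAMTS in orange) and all others in grey. The total lies between 104 and 114 FPKM in 3 libraries and at 207 FPKM in the old tumor-bearing one, where Adamts1 and Mmp2 form large parts.

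The first comparison asked how protease transcripts in old tumor-bearing tissue differed from those in old naive tissue. Adamts14, Adamts12, Adamts1, Mmp13, Mmp3 and Mmp2 were many-fold higher, while brain-enriched Mmp24 and the procollagen proteases Adamts2 and Adamts3 were lower. Adamts2 was lower by less than 2-fold when the libraries were scaled in the 3 other ways given below. A gene was compared when it reached 1 FPKM in at least 1 of the 2 libraries, and was counted when its log2 ratio of FPKM + 0.1 was at least 1 in size, that is 2-fold. Of 25 proteases compared, 11 were at least 2-fold higher, 4 lower and 10 within 2-fold (median log2 ratio 0.48). Among all 16488 genes compared, 20.6% were higher and 31.4% lower (median -0.31), and among the 13582 protein-coding genes 19.3% and 29.7%. Before the 0.1 is added, the 3 other ways of scaling the libraries moved every log2 ratio of this pair up by 0.38 to 0.58. With the 0.1 the move was smaller for low genes, such as Mmp3 from 4.64 to 4.83 with equal FPKM totals. With median-of-ratios scaling 14 members were higher and 3 lower, beside 27.8% and 23.0% of all genes compared. With equal FPKM totals the counts were 14 and 2, beside 28.7% and 21.9%, and with equal reads in genes 15 and 2, beside 32.2% and 19.3%.

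That count is partly set by the minimum level. Of the 11 higher members, 8 reached 1 FPKM only in the tumor-bearing library, and 3 of the 4 lower ones only in the naive library. Among members at 1 FPKM or more in both libraries, Adamts1, Mmp2 and Mmp14 were at least 2-fold higher, Mmp24 was lower and 8 were within 2-fold, beside 13.3% higher and 28.4% lower of all protein-coding genes over that level in both. Below 1 FPKM in both libraries, 6 more members (Adamts5, Adamts7, Adamts19, Mmp10, Mmp12 and Mmp19) were at least 2-fold higher with a counting interval above 1, and Adamts16, Adamts18 and Mmp9 were lower in the same way. By this rule, with no minimum level, 17 members were higher and 8 lower, against 18.4% and 26.8% of protein-coding genes with a read. Of these 8, Adamts8 was past 2-fold in FPKM but within 2-fold on the scale of FPKM + 0.1 (log2 ratio -0.89). Parentheses after a fold hold the exact 95% interval of the ratio of reads, which covers counting error only.

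**Figure D2:**
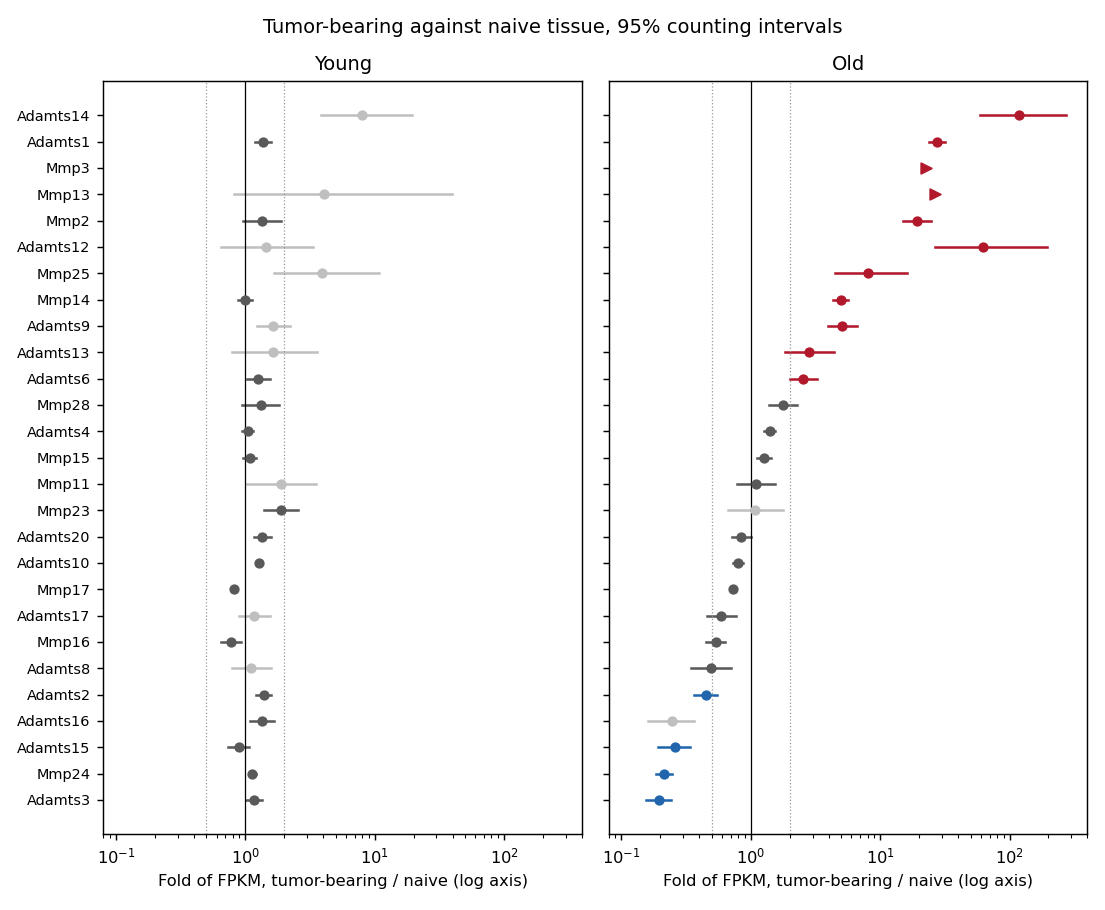
Fold of FPKM in tumor-bearing over naive tissue (log axis) for the 27 members that reached 1 FPKM in any library, young mice on the left and old mice on the right, with exact 95% counting intervals of 1 library against 1. Red and blue mark members at least 2-fold higher or lower, and dark grey those within 2-fold. Members under 1 FPKM in both libraries are light grey. Arrowheads mark the fold against the 3 reads that a count of 0 allows, and dotted lines a 2-fold difference. Mmp3 is not drawn for young mice, where it had 0 and 3 reads. Old mice spread from Adamts3 at 5.14-fold lower to Adamts14 at 118-fold higher, while no compared member passed 2-fold in young mice.

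Among the gelatinases, which cut denatured collagen and collagen IV, the pair parted. Mmp2 (ENSMUSG00000031740, mm10 chromosome 8, 92827291 to 92853420), known as gelatinase A, was at 0.943 FPKM in young naive, 1.28 in young tumor-bearing, 1.31 in old naive and 25.1 in old tumor-bearing tissue. The old tumor-bearing library thus stood far from the 3 others, which lay within 1.39-fold of each other. Mmp2 was 19.2-fold higher (15.1 to 24.7) in old tumor-bearing than in old naive tissue and 1.35-fold higher (0.969 to 1.90) in young. Mmp9, gelatinase B, an enzyme that neutrophils store, had 27 reads in young naive, 70 in young tumor-bearing, 46 in old naive and 27 in old tumor-bearing tissue, below 1 FPKM in all 4. It was 2.65-fold higher (1.68 to 4.30) with a tumor in the young libraries and 2.53-fold lower (1.54 to 4.24) in the old ones. The 8 neutrophil markers summed to 3.21, 2.40, 9.55 and 3.73 FPKM in the same order, with Ly6g at 0 reads in all but the young naive library. Their part in the Mmp9 values was not tested.

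Membrane-type MMPs sit on the cell surface, and Mmp14 (MT1-MMP) is the known activator of pro-MMP2 together with TIMP2. Mmp14 (ENSMUSG00000000957, mm10 chromosome 14, 54431612 to 54445364) was at 4.12 FPKM in young naive, 4.10 in young tumor-bearing, 2.92 in old naive and 14.4 in old tumor-bearing tissue. Like Mmp2 it was high in the old tumor-bearing library alone, 4.95-fold above old naive (4.35 to 5.63), and the interval of the young pair held 1 (0.996-fold, 0.877 to 1.13). Mmp24 (MT5-MMP), an enzyme enriched in neurons, went the other way, at 18.7 and 21.3 FPKM in young naive and young tumor-bearing tissue and 11.0 and 2.36 FPKM in old naive and old tumor-bearing tissue. It was 4.67-fold lower (4.05 to 5.39) in old tumor-bearing than in old naive tissue and 1.14-fold higher (1.07 to 1.21) in the young pair. Mmp24 overlaps BC029722, which lies on the other strand at 11.4 to 23.9 FPKM. Overlaps here and below are of whole gene spans, and shared exons were not looked for. Reads from any shared stretch cannot be told apart, because the protocol describes both strand-specific and unspecific preparation without saying which was used.

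The remaining membrane-type enzymes stayed within 2-fold in both tumor comparisons wherever they were well expressed. Mmp15 (MT2-MMP) was at 4.89, 5.29, 5.03 and 6.35 FPKM in young naive and tumor-bearing and then old naive and tumor-bearing tissue, the order used below, and Mmp16 (MT3-MMP) at 1.70, 1.33, 2.27 and 1.22 FPKM. Mmp17 was at 30.2, 24.8, 48.3 and 35.1 FPKM, 1.38-fold lower in old tumor-bearing than in old naive tissue (1.32 to 1.43), a direction that turned when libraries were scaled to equal fragments in genes (log2 ratio -0.46 against 0.12). Mmp25, the other GPI-anchored member and a leukocyte enzyme, was rare, with 7, 27, 12 and 144 reads. It was 8.07-fold higher (4.48 to 16.0) in old tumor-bearing than in old naive tissue.

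Collagenases, stromelysins and macrophage elastase lie together on chromosome 9, where 9 of the 41 members (Mmp13, Mmp12, Mmp1b, Mmp3, Mmp10, Mmp8, Mmp27, Mmp20 and Mmp7) span 427072 bases of mm10, from 7272514 to 7699585. All 9 together had 5 reads in young naive tissue, 18 with a tumor in young mice, 7 in old naive tissue and 317 with a tumor in old mice. The cluster was thus near silent in 3 libraries, and 6 of its 9 members had reads in the fourth. Mmp13, collagenase 3, had 2, 8, 0 and 119 reads. Set against the 3 reads that a count of 0 allows per library, it was 26.7-fold higher in old tumor-bearing than in old naive tissue. The exact interval of Mmp13 began at 21.4. Mmp3, stromelysin 1, which also activates other pro-MMPs, had 0, 3, 0 and 100 reads. It was 22.4-fold higher on the same basis, with an exact interval from 17.9. Mmp12, the macrophage elastase, had 0, 5, 4 and 70 reads (11.8-fold, 4.40 to 44.4). Mmp10, stromelysin 2, had 13 reads in the old tumor-bearing library and 0 elsewhere. Against 3 reads it was 2.92-fold higher, with an exact interval from 2.05. Mmp3 and Mmp10 are close relatives, so reads could be split between them. Mmp8, the neutrophil collagenase, had 1, 2, 3 and 7 reads, and Mmp27 had 8 reads in the old tumor-bearing library and 0 elsewhere. Mmp20, the enamel protease, had 2 reads in the young naive library alone, and Mmp1b and Mmp7 (matrilysin) had 0 reads in all 4, which at this depth allows up to 3 reads per library.

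Promoters from this cluster are shown because its summed reads were highest in the old tumor-bearing library and because AP-1, the Fos and Jun transcription factor, is a textbook regulator of collagenase and stromelysin genes. RefSeq promoter windows (GRCm38.p6, 250 bases before to 50 after the start) were matched by symbol for 27 of the 41 members. The AP-1 motif was searched for as TGANTCA with any base at N, a pattern that is its own reverse complement. It was in a window of 7 of the 9 cluster members and of 0 of the 18 other members. Among all 27025 genes in the table the share was 8.97%. The base at N was A in Mmp20 and C or G in the others of the 7. The motif was absent from the windows of Mmp8 and Mmp27. The motif did not separate members with reads from those without: of the 7 cluster members that hold it, Mmp1b, Mmp7 and Mmp20 had 0 reads in the old tumor-bearing library, where Mmp8 and Mmp27 had 7 and 8. Capitals mark the motif, whose first base lies 35 bases before the start in Mmp13, 46 in Mmp3 and 63 in Mmp10, all on the plus strand of chromosome 9 (chr9:7272264-7272563, chr9:7445572-7445871 and chr9:7502092-7502391). Adamts1, the most abundant member of the old tumor-bearing library, is given for contrast from the minus strand (chr16:85803064-85803363) and holds no match. A match is a description of the letters and not a measured binding site.
Mmp13: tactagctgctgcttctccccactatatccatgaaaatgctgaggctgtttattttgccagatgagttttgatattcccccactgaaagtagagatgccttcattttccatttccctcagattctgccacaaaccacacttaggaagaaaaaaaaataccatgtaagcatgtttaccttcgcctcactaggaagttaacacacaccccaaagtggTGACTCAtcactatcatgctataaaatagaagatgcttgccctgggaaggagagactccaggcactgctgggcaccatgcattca
Mmp3: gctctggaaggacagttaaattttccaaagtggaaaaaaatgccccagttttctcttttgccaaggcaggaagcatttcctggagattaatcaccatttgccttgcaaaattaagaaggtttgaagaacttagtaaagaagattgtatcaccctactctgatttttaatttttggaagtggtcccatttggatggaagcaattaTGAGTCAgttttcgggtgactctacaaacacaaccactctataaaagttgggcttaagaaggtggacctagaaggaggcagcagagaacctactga
Mmp10: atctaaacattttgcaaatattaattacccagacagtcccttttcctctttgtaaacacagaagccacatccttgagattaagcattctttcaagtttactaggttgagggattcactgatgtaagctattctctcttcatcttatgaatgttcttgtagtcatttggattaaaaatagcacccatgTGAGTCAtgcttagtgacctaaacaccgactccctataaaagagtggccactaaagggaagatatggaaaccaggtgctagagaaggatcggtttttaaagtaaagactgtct
Adamts1: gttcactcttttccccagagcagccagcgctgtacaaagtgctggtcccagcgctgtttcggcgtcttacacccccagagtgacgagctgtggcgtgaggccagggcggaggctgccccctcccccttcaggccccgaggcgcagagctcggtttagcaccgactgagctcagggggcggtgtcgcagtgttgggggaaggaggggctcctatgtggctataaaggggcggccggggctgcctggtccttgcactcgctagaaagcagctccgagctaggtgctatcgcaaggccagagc

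Of the remaining MMPs, Mmp11 (stromelysin 3), an enzyme of tumor stroma and tissue remodelling, was at 0.317, 0.594, 1.33 and 1.46 FPKM in the same order, so both old libraries stood above both young ones. Mmp11 overlaps Chchd10, a gene on the other strand at 21.98 to 77.0 FPKM. Mmp28 (epilysin) was at 0.846, 1.11, 1.55 and 2.73 FPKM and Mmp23 at 1.505, 2.84, 0.819 and 0.882 FPKM. Between the old libraries Mmp11 and Mmp23 had intervals that held 1, and Mmp28 was 1.76-fold higher with a tumor (1.38 to 2.26). The log2 ratio of Mmp28 went from 0.78 as deposited to 1.14, 1.19 and 1.33 under the 3 other scalings, past 2-fold. Mmp19 had 16, 27, 16 and 79 reads, 3.32-fold higher in the old pair (1.92 to 6.09), and it overlaps Tmem198b on the other strand. Mmp21 had 1, 4, 3 and 3 reads.

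Proteoglycan-cutting ADAMTS enzymes act on lecticans such as brevican, neurocan and versican. Adamts1 (ENSMUSG00000022893, mm10 chromosome 16, 85793827 to 85803113) was at 3.18 FPKM in young naive, 4.35 in young tumor-bearing, 2.53 in old naive and 69.2 in old tumor-bearing tissue. That last value, from 8526 reads, was 27.3-fold above old naive tissue (23.8 to 31.5) and the highest of any member in any library. Adamts5, its neighbour within a stretch of 108002 bases, had 111, 80, 35 and 142 reads and was 2.73-fold higher (1.87 to 4.07) at a level below 1 FPKM. Adamts4, an aggrecanase that brain normally expresses, was steady at 8.38, 8.76, 7.85 and 11.0 FPKM (1.398-fold higher in old tumor-bearing than old naive, 1.27 to 1.54).

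Other members of the group moved in both directions. Adamts9 was at 0.257, 0.422, 0.314 and 1.60 FPKM (5.08-fold higher in old tumor-bearing than old naive, 3.98 to 6.57). Adamts15 was at 1.23, 1.09, 1.13 and 0.290 FPKM, 3.89-fold lower (2.93 to 5.19). Adamts8, which lies beside Adamts15 on chromosome 9, was at 0.721, 0.802, 1.05 and 0.522 FPKM, 2.02-fold lower (1.41 to 2.90), and Adamts20 at 1.73, 2.35, 1.69 and 1.43 FPKM, 0.845-fold (0.711 to 1.01), a direction that turned under all 3 other scalings. Thus Adamts15, Adamts8 and, at the deposited scaling, Adamts20 had their lowest level in the old tumor-bearing library, and Adamts1, Adamts4, Adamts5 and Adamts9 their highest.

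The 3 procollagen N-proteinases, which trim the ends of fibrillar procollagens, were split. Adamts14 (ENSMUSG00000059901, mm10 chromosome 10, 61197112 to 61273438) was at 0.0753 FPKM in young naive, 0.606 in young tumor-bearing, 0.0984 in old naive and 11.6 in old tumor-bearing tissue. Both tumor-bearing libraries stood above both naive ones. Its 8 and 63 reads made an 8.05-fold difference (3.85 to 19.5) in the young pair, and its 8 and 1400 reads a 118-fold difference (59.6 to 273) in the old pair. Adamts2, the main enzyme for collagen I in skin, was at 1.88, 2.60, 1.53 and 0.686 FPKM, 2.23-fold lower in old tumor-bearing than in old naive tissue (1.81 to 2.77). Under the 3 other scalings Adamts2 stayed lower but within 2-fold (log2 ratios -0.71, -0.66 and -0.53), as with a pseudocount of 1 (-0.59). Adamts3, which also processes the lymphatic growth factor VEGF-C, was at 3.35, 3.90, 4.19 and 0.816 FPKM, 5.14-fold lower (4.11 to 6.46). So within the group Adamts14 passed from the lowest level in naive tissue to the highest in old tumor-bearing tissue.

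Adamts12 and Adamts7, known for cutting cartilage oligomeric matrix protein, were both near absent from naive tissue. Adamts12 had 12, 17, 5 and 465 reads (62.6-fold higher in old tumor-bearing than old naive, 26.6 to 194), and Adamts7 had 9, 20, 9 and 130 reads (9.72-fold, 4.96 to 21.7) and overlaps Tbc1d2b on the other strand. Adamts13, which cuts von Willebrand factor, had 13, 21, 28 and 117 reads (2.81-fold, 1.85 to 4.41). All 3 had their highest level in the old tumor-bearing library.

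Among the other ADAMTS enzymes, Adamts10, which binds fibrillin, was the most abundant in the young libraries. It was at 14.8 FPKM in young naive, 18.9 in young tumor-bearing, 6.58 in old naive and 5.26 in old tumor-bearing tissue, with both young libraries above both old ones. Between the old libraries it was 1.25-fold lower with a tumor (1.14 to 1.37), a direction that turned under all 3 other scalings. Adamts6, its closest relative, was at 1.10, 1.39, 0.721 and 1.83 FPKM, 2.53-fold higher in old tumor-bearing than old naive tissue (1.995 to 3.24). Adamts16 was at 1.13, 1.52, 0.898 and 0.220 FPKM and Adamts18 at 0.615, 0.771, 0.301 and 0.0338 FPKM, so both were lowest in the old tumor-bearing library. Relative to old naive tissue they were 4.08-fold (2.74 to 6.19) and 8.92-fold (4.18 to 21.8) lower. Adamts17 was at 0.636, 0.747, 1.05 and 0.620 FPKM and Adamts19 at 0.147, 0.396, 0.0959 and 0.212 FPKM.

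**Figure D3:**
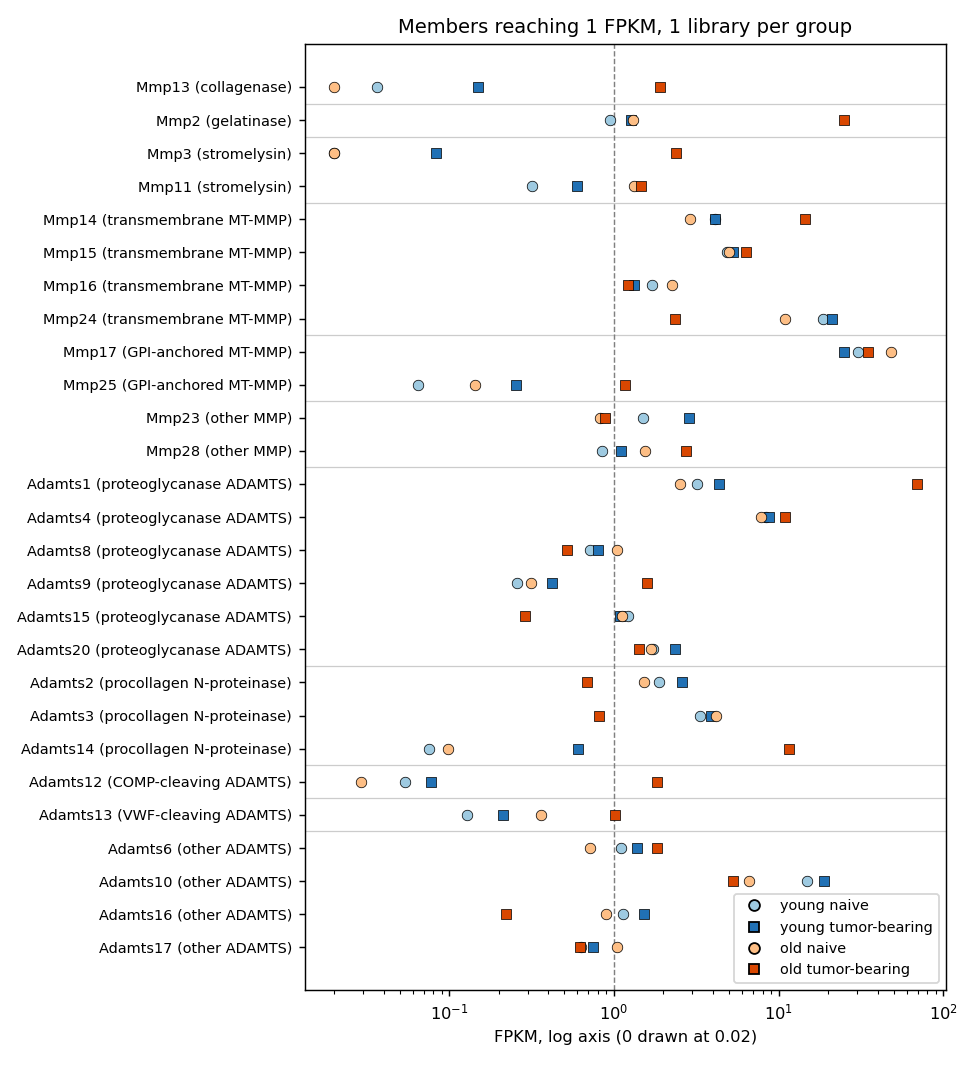
FPKM (log axis) of the 27 members that reached 1 FPKM in at least 1 library, ordered by role, with 1 point per library (circles naive, squares tumor-bearing, blue young, orange old) and the 1 FPKM level dashed. Of the 27, 15 had their highest and 10 their lowest level in the old tumor-bearing library, with Adamts1 at 69.2 FPKM and Adamts16 at 0.220 FPKM among them.

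The second comparison, young tumor-bearing against young naive tissue, showed far smaller differences. Of 17 proteases compared, 0 were at least 2-fold higher or lower, beside 5.05% higher and 1.85% lower of 15500 genes, and 2.31% and 0.35% of protein-coding genes. Their median log2 ratio was 0.31, beside -0.01 for all genes. The largest was that of Mmp23, 1.89-fold higher (1.41 to 2.55), from 72 and 133 reads. With no minimum level, 4 members were at least 2-fold higher with a counting interval above 1, and 0 were lower in the same way. Among protein-coding genes with a read, at any level, the shares were 5.47% and 0.973%. All 4 members lay below 1 FPKM in both libraries. These were Adamts14 and Mmp9, given above, Adamts19 (42 and 111 reads, 2.70-fold, 1.88 to 3.95) and Mmp25 (3.94-fold, 1.68 to 10.7). The abundant members were close to each other in the 2 libraries, with Adamts10 1.27-fold higher (1.21 to 1.34) and Mmp17 1.22-fold lower (1.16 to 1.27).

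The third comparison set old naive against young naive tissue. Of 20 members compared, Mmp11 was at least 2-fold higher (4.21-fold, 2.45 to 7.59) and Adamts10 was lower (2.26-fold, 2.09 to 2.44), beside 6.71% of all compared genes higher and 4.93% lower, and 3.26% and 3.07% of protein-coding genes. With equal FPKM totals 1 member was higher and 2 were lower, beside 4.06% and 6.73% of genes. Mmp17 was 1.60-fold higher (1.53 to 1.67), from 4086 and 4999 reads, and Mmp24 was 1.70-fold lower (1.56 to 1.85). Below 1 FPKM in both libraries, 4 members differed at least 2-fold with an interval that excluded 1. They were Adamts13 (2.81-fold higher, 1.41 to 5.92), Mmp9 (2.23-fold higher, 1.36 to 3.72), Adamts5 (2.43-fold lower, 1.65 to 3.66) and Adamts18 (2.04-fold lower, 1.45 to 2.91). Taken over all levels, the same rule picked 3 members on the higher side and 3 on the lower side. For protein-coding genes with a read, its shares were 4.82% and 4.61%. Choroid plexus markers were at least 2-fold lower in 6 of 6 genes in the old naive library, and their part in these values was not tested.

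The fourth comparison was old tumor-bearing against young tumor-bearing tissue, which shares 1 library with each tumor comparison. Of 25 members compared, 12 were at least 2-fold higher and 7 lower, beside 19.0% and 29.8% of all compared genes and 17.6% and 27.9% of protein-coding ones. Of the 12, Adamts1 (15.9-fold, 14.5 to 17.5), Mmp2 (19.7-fold, 15.8 to 24.7), Mmp14 (3.52-fold, 3.18 to 3.89) and Mmp28 (2.46-fold, 1.92 to 3.18) were over 1 FPKM in both libraries, as were Mmp24 and Adamts10 of the 7, beside 13.7% higher and 25.5% lower of protein-coding genes over that level in both. Mmp24 was 9.01-fold lower (7.91 to 10.3) and Adamts10 3.59-fold lower (3.34 to 3.85). The tumor log2 ratio itself was at least 1 higher in old than in young mice for 9 of 27 members and at least 1 lower for 6, beside 19.3% and 32.0% of 17441 genes and 18.1% and 28.9% of protein-coding ones. With median-of-ratios scaling these counts were 13 and 5, beside 27.6% and 23.4%, and with equal reads in genes 13 and 5, beside 29.7% and 21.6%. Adamts1 stood at 4.72 in old and 0.44 in young mice on that scale, Mmp2 at 4.16 and 0.40, Mmp24 at -2.18 and 0.18, and Adamts3 at -2.23 and 0.21. These differences between ages have no replicate and were not tested.

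Partners of the proteases also differed between the old libraries. The inhibitor Timp1 was at 1.54 FPKM in young naive, 4.67 in young tumor-bearing, 1.87 in old naive and 70.8 in old tumor-bearing tissue, 37.8-fold higher in the old pair (25.7 to 58.1). It was the only one of the 4 TIMPs at least 2-fold higher in either tumor comparison. Timp2, which takes part in MMP2 activation, was at 95.8, 87.2, 92.9 and 48.8 FPKM, Timp3, which binds to the matrix, at 11.7, 11.6, 9.001 and 4.995 FPKM, and Timp4 at 16.2, 11.5, 6.02 and 1.88 FPKM. Reck, a membrane-anchored MMP inhibitor, was 3.14-fold lower (2.59 to 3.81) in old tumor-bearing than old naive tissue. A2m, a broad protease trap, was at 4.51, 7.27, 0.246 and 10.1 FPKM, with its minimum in old naive tissue. Of the 6 inhibitors, 2 were thus at least 2-fold higher and 2 lower in the old pair, beside 20.6% and 31.4% of all genes. In the young pair 1 was higher and 0 lower, beside 5.05% and 1.85%.

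Activators of pro-MMPs and their regulators went in both directions between the old libraries. With a tumor, Plaur, the urokinase receptor, was 13.9-fold higher (8.77 to 23.3) and urokinase itself, Plau, 2.86-fold higher (2.17 to 3.83). Serpini1 (neuroserpin) was 5.40-fold lower (5.09 to 5.73), the convertase Pcsk5 was 5.25-fold lower (4.17 to 6.65), and Furin, the convertase that activates membrane-type MMPs, was within 2-fold (1.28-fold, 1.18 to 1.4).

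**Figure D4:**
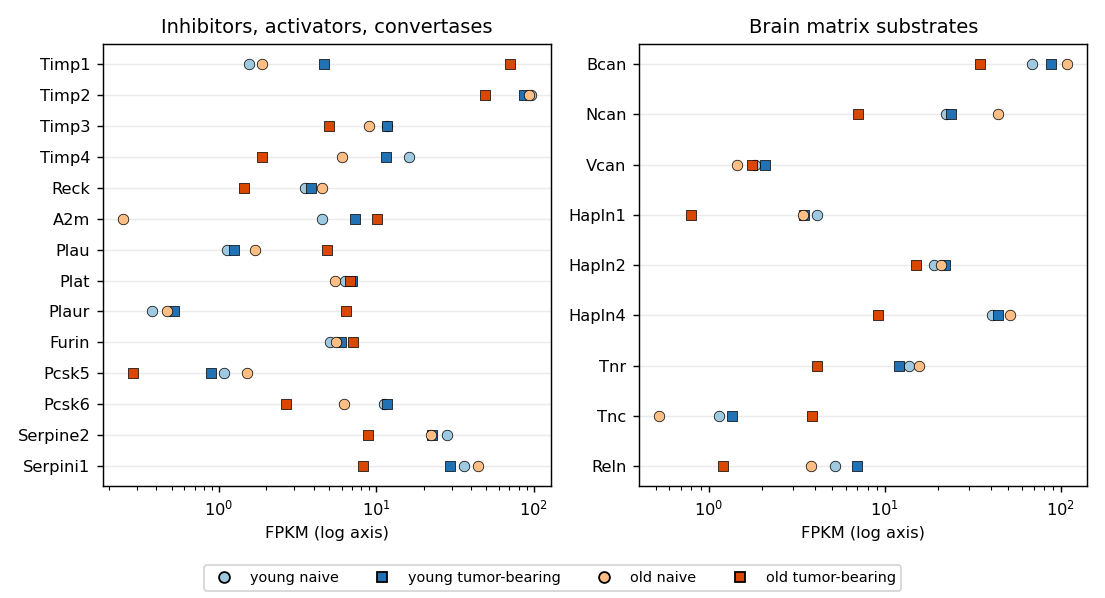
FPKM (log axis) of protease inhibitors, activators and convertases (left) and of brain matrix substrates (right) reported here that reached 1 FPKM in any of the 4 libraries, with 1 point per library. Timp1 lies at 70.8 FPKM and the lectican Ncan at 7.01 FPKM in the old tumor-bearing library, against 1.87 and 43.8 FPKM in the old naive one.

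Substrates of these enzymes in brain matrix were mostly lower in the old tumor-bearing library, with 6 of 9 compared genes at least 2-fold lower and 1 higher against old naive tissue (all genes 31.4% and 20.6%), and 0 of 9 in either direction in the young pair (1.85% and 5.05%). Neurocan (Ncan) was 6.24-fold lower (5.86 to 6.66), the link protein gene Hapln4 5.61-fold (5.19 to 6.06) and Hapln1 4.35-fold (3.49 to 5.46), while versican (Vcan) was 1.22-fold higher (1.06 to 1.39) and tenascin C (Tnc) 7.30-fold higher (5.64 to 9.58). Basement membrane and interstitial matrix genes were at least 2-fold higher in 7 of 12 and lower in 1 (all genes 20.6% and 31.4%), with Hspg2 (perlecan) 19.6-fold (17.7 to 21.6), Fn1 (fibronectin) 9.50-fold (9.04 to 9.99) and Lamb1 8.39-fold higher (7.49 to 9.43). In the young pair 3 of 12 were higher (all genes 5.05%), and Hspg2 was at 0.937 and 2.43 FPKM.

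Cell type markers differed between the old libraries as well. All 7 cycling cell markers were at least 2-fold higher with a tumor in old mice (summed FPKM 0.538 and 143), as were 5 of 6 monocyte and macrophage markers (13.4 and 265) and 5 of 5 compared T and NK cell markers (0.521 and 20.7). Neuronal markers were lower in 5 of 6 (1244 and 258) and astrocyte markers in 3 of 5 (382 and 116). Fibroblast markers were higher in 2 of 6 and lower in 1 (12.8 and 17.0), mural cell markers lower in 3 of 5 compared (43.6 and 18.2), and endothelial markers lower in 2 of 5 (65.3 and 37.2). Microglia markers were higher in 0 and lower in 1 of 5, and oligodendrocyte markers in 0 of 5 either way. Oligodendrocyte precursor markers were lower in 2 of 4, neutrophil markers lower in 1 of 2 compared, and ependymal markers in 0 of 2 compared either way. Choroid plexus markers were higher in 4 of 5 compared (7.53 and 456), with the old naive library the low one of all 4. In the young pair the cycling sum was 1.03 and 6.70 FPKM, the macrophage sum 7.74 and 31.5 FPKM, and the neuronal sum 909.8 and 819 FPKM. Which of these cells, or of any GL261 cells in the tissue, the protease transcripts came from was not tested. Graft and host are both mouse, and the gene values do not tell their reads apart.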

How the data were processed

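The authors deposited 1 FPKM value per gene and library. The submitters' processing notes name HISAT2 and mm10, the counter and annotation are not given in the sources used here, and per the labels' protocols both stranded and unstranded preparations are described. GENCODE M21, built on mm10, supplied gene symbols, positions and exon lengths and named 54495 of 54532 IDs. Promoter windows came from RefSeq (GRCm38.p6). Protein sequences were not analysed here, and some genes are not reported here. FPKM times exon length came in whole steps, which gave the reads: 97.1% of 32867 genes above 0 were whole in all 4 libraries within 0.03 reads or 2e-05 of the value, as were 39 of 41 members. Adamts10 and Adamts19 were rounded to the nearest read. For a gene of 1 kb, 3 reads, the limit that a count of 0 allows, stood for 0.129 to 0.192 FPKM.

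The log2 scale is that of FPKM + 0.1, on which low genes differ less, and folds are of FPKM without it, with exact conditional binomial 95% intervals of reads. Without molecular identifiers a read is not an independent molecule, so intervals and floors cover counting error alone. No test was possible with 1 library per group. Read recovery and intervals were tested on simulated data. Every member is named. Of the other lists, genes with the largest old tumor ratio were named, with all inhibitors, and further genes (Plau, Furin, Vcan, Adam10) were named, and the promoters printed were chosen, after their values were seen. Members and lists were chosen with earlier results of these data known. Alternatives were the pseudocount, the minimum level, the scaling and a call by interval. Python 3.11.15, pandas 2.3.3, numpy 2.4.6, scipy 1.17.1 and matplotlib 3.10.9 were used.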

Additional observations from a re-analysis of the deposited data

Results flagged for a closer look

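In 7 members the tumor-bearing library differed from the naive one in opposite directions in young and old mice, each with a counting interval that excluded 1 at the deposited scaling, and the difference between ages was not tested. The log2 ratios of FPKM + 0.1, young then old, were 0.45 and -1.05 for Adamts2, 0.21 and -2.23 for Adamts3, 0.40 and -1.64 for Adamts16, 0.18 and -2.18 for Mmp24, and 1.20 and -1.12 for Mmp9. For Adamts10 they were 0.35 and -0.32, and the old value turned to 0.06 to 0.25 under the 3 other scalings. Adamts5 alone went from lower to higher, at -0.36 and 1.12. The intervals were also taken under the 3 other scalings, a step chosen after seeing the data. The young interval then held 1 for Adamts3 with median-of-ratios scaling (0.982 to 1.30), and for Adamts5 with equal FPKM totals (0.566 to 1.03) and with equal reads in genes (0.567 to 1.03).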

How the results depend on the processing

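Of 78 recomputed counts of members called, 52 stayed within 1.5 times the reported count and 26 did not, and no member counted as at least 2-fold higher or lower changed direction. In the old pair, tumor-bearing against naive, the 11 higher and 4 lower members became 7 and 2 with a pseudocount of 1, 17 and 7 with no minimum level, 4 and 1 with a minimum of 5 FPKM, and 17 and 8 when called by interval. The 4 lower became 2 with equal FPKM totals and 2 with equal reads in genes. In the young pair the 0 higher became 4 with no minimum, 4 by interval and 1 with equal FPKM totals. In old against young naive tissue the 1 higher became 0 with a pseudocount of 1, 2 with no minimum, 0 at 5 FPKM and 3 by interval, and the 1 lower became 2 with equal FPKM totals and 3 by interval. In old against young tumor-bearing tissue the 12 higher became 7 with a pseudocount of 1 and 4 at 5 FPKM, and the 7 lower became 2 at 5 FPKM. For the difference in tumor ratio between ages, the 9 higher became 14 with no minimum and 4 at 5 FPKM, and the 6 lower became 2 with a pseudocount of 1 and 1 at 5 FPKM. The cause of these moves was not tested, beyond the number of members that a minimum lets in.

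No paired analysis was possible because each group has 1 library and the labels carry no replicate numbers, and for the same reason none was left out in turn. Depth limits the members below 1 FPKM, where a count of 0 allows up to 3 reads.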

Other observations

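The ADAM family, membrane-bound relatives of the ADAMTS enzymes that shed cell surface proteins, had 2 of 9 compared genes at least 2-fold higher with a tumor in the old pair and 4 lower, beside 20.6% and 31.4% of all genes. Adam17, the sheddase of tumor necrosis factor, was at 3.76 FPKM in young naive, 4.21 in young tumor-bearing, 2.66 in old naive and 14.0 in old tumor-bearing tissue. Adam10, which cuts Notch and many neuronal proteins, was at 19.95, 20.1, 18.3 and 15.8 FPKM. Adam22 and Adam23, neuronal members without protease activity, were lower in the old tumor-bearing library, at 20.6 and 3.69 FPKM and at 13.1 and 2.25 FPKM in old naive and old tumor-bearing tissue.

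Of the 6 ADAMTS-like genes, which lack the protease domain, 0 of 5 compared were at least 2-fold higher and 1 was lower in the same pair. Among all genes compared there, 20.6% were higher and 31.4% lower. Papln, a relative of this group, was at 0.469, 0.630, 2.52 and 0.748 FPKM, so the old naive library was the high one. In the old pair 2 of the 7 AP-1 subunits passed 2-fold upward with a tumor and 1 downward, beside 20.6% and 31.4% of all genes. The 7 subunits had a median log2 ratio of 0.27 there. Jun was at 17.0, 20.7, 15.1 and 78.7 FPKM and Fosl1 at 3.90, 5.42, 3.41 and 11.1 FPKM, both highest in the old tumor-bearing library. Fosb was lowest in that library, at 2.68, 2.23, 5.12 and 0.854 FPKM. The other subunits stayed within 2-fold in the old pair.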
